A study of Mus musculus with 18 samples.

Results

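The mitochondrially encoded genes are the genes that the mouse mitochondrial chromosome carries itself. They were taken as all rows whose gene name starts with mt-, which were the 37 rows on chromosome MT of 52636 genes. Of the 37, 13 encode proteins, 2 encode the ribosomal RNAs (rRNA) and 22 encode transfer RNAs (tRNA). RNA had been selected by its poly-A tail and sequenced from liver, brain and testis of male C57BL/6 mice aged 8 weeks that were either wild type (WT) or lacked Pcgf6 by knockout (KO). Pcgf6 encodes a subunit of a polycomb repressive complex. There were 3 WT and 3 KO libraries per tissue, 18 in all, which carry numbers 1 to 3 (WT) and 4 to 6 (KO). No other allele or treatment is named, and the labels do not say which exons the knockout removes or whether libraries of different tissues came from the same mice. They also do not say that libraries came from separate animals, so the spread behind the p-values is that between libraries, which may be technical.

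The mitochondrial chromosome is read from both strands as long transcripts, which are cut into single RNAs mostly at the tRNAs that lie between the other genes. Its 13 proteins are all subunits of the respiratory chain and of ATP synthase, and its rRNAs form the mitochondrial ribosome that translates them. The mRNAs receive short poly-A tails inside the mitochondrion, the rRNAs receive very short ones, and mature tRNAs end in CCA, so a library selected on poly-A tails does not hold these classes in the proportions of the cell. All other proteins of mitochondria, including the remaining respiratory chain subunits, are encoded in the nucleus.

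The tails also complete the reading frames. The genes mt-Co3, mt-Nd4 and mt-Cytb end on a single T of the stop codon, and the A residues come from the tail, while mt-Co1 carries a whole stop codon. The last 24 bases of these genes are shown to make this visible, with the encoded part of the stop codon in capitals (GENCODE M21 transcripts, GRCm38).

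mt-Co3: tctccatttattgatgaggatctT

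mt-Nd4: aactaattacaggcctgacaataT

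mt-Cytb: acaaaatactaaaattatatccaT

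mt-Co1: ccaacctatgtaaaagtaaaaTAA

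The nuclear genome holds copies of mitochondrial DNA, and near-identical copies decide how reads of some genes can be counted. The 37 GENCODE M21 mitochondrial transcripts were searched against the nuclear ones (BLAST). At 99% identity or more, 7 unprocessed pseudogenes of mm10 chromosome 1 matched genes between bases 6390 and 11042 of chromosome MT. These pseudogenes lie within 4663 bases, from 24611535 to 24616197. They covered over 95% of 5 genes, namely mt-Co2, mt-Atp6, mt-Co3, mt-Nd3 and mt-Nd4l. For mt-Co2, mt-Atp6, mt-Co3 and mt-Nd4l the match was 100% identical. The first 80 bases of mt-Nd3 and of its copy Gm28438 are given because they differ at a single base, in capitals, written T3C with the mitochondrial base first and positions counted from the start of the gene.

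mt-Nd3: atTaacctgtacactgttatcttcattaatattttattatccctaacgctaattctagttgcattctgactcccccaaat

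Gm28438: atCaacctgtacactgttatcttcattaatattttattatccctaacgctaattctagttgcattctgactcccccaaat

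The gene mt-Cytb had no copy of that identity. Its closest long copy, Gm11410, was 92.9% identical over 1142 bases, and the 120 bases from base 531 of mt-Cytb show 9 differences in capitals.

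mt-Cytb: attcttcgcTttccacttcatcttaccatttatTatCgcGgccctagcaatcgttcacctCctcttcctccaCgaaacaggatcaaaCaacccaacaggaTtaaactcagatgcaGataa

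Gm11410: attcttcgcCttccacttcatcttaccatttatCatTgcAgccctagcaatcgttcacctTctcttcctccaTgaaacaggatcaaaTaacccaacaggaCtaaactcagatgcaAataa

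The deposited values are FPKM, reads per gene corrected for gene length and library size, from which whole reads per gene were recovered. Depth was 18990130 to 23529098 reads per library. Pcgf6 was lower in the KO libraries of each tissue without reaching 0: 4.08 to 5.66 FPKM in WT liver against 1.44 to 2.66 in KO, 4.58 to 5.29 against 3.30 to 4.42 in brain, and 19.9 to 22.3 against 9.58 to 10.6 in testis. Its log2 change was -1.35 ± 0.24, -0.34 ± 0.12 and -1.06 ± 0.09 (limma SE), and it did not pass the test in any tissue (adjusted p = 0.485 in liver, 1 in brain and 0.0638 in testis). Marker genes of liver, brain and testis were highest in the tissue of the label in all 18 libraries. The scaling behind FPKM was a median-of-ratios size factor rather than the read total, and the read total divided by that size was 1.44 to 1.52 for liver libraries, 0.806 to 0.835 for brain libraries and 0.823 to 0.969 for testis libraries. FPKM of liver is therefore raised against shares of all reads. Tissue comparisons are on FPKM unless library totals or shares of reads are named, and levels of single nuclear genes are on FPKM only. Genes were tested with limma on log2(FPKM + 0.1) over every gene that reached 10 reads in 3 or more of the 6 libraries, and a gene is called higher or lower at a Benjamini-Hochberg adjusted p under 0.05.

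Summed over the 13 protein-coding genes, the level was highest in liver, intermediate in brain and lowest in testis. Together the genes took 5.07 to 5.60% of all reads in liver, against 3.21 to 3.71% in brain and 0.751 to 1.02% in testis, and the ranges of the 3 tissues did not overlap. mt-Nd3 did not follow this order in WT. WT liver was 0.779-fold of WT brain in FPKM, with overlapping ranges, and 0.433-fold in share of reads, where all WT liver libraries lay lower. Between KO liver and KO brain its ratios were 1.56 and 0.855, both with overlapping ranges. In share of reads the WT liver and WT brain ranges overlapped for mt-Co2, mt-Atp8, mt-Co3, mt-Nd4l, mt-Nd5 and mt-Nd6. The summed FPKM of the 13 genes was 59163 to 68149 in liver, against 21387 to 24814 in brain and 5500.5 to 6725 in testis. In bulk tissue, fewer cells rich in mitochondria and less mitochondrial RNA per cell cannot be told apart.

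The gene mt-Co1 (ENSMUSG00000064351, MT 5328 to 6872), which encodes the catalytic subunit of cytochrome c oxidase, was the most abundant member in every tissue. It measured 20635, 19699.9 and 20188 FPKM in WT liver, 8264, 7166 and 7594 in WT brain, and 2295, 2262 and 2461 in WT testis. All WT liver libraries lay above all WT brain libraries, and these above all WT testis libraries. By mean FPKM among all genes mt-Co1 ranked 2 in liver, 1 in brain and 5 in testis. WT liver exceeded WT brain 2.63-fold in FPKM and 1.47-fold in share of reads, with a log2 difference of 1.40 ± 0.18 (limma SE, adjusted p = 0.000295) on FPKM and an adjusted p of 0.0143 with limma on values scaled to the library total.

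The gene mt-Cytb (ENSMUSG00000064370, MT 14145 to 15288), the subunit of complex III encoded in the mitochondrion, followed in liver and brain. It measured 13548, 12288 and 12824 FPKM in WT liver, 4509.6, 4019.6 and 4038 in WT brain, and 925, 909 and 1201 in WT testis. WT liver was 3.08-fold above WT brain in FPKM and 1.72-fold in share of reads. Its range met that of mt-Nd1 in brain and in testis, so the order of these neighbours is not resolved there.

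Complex I, the NADH dehydrogenase, has 7 subunits among the 13. Of these mt-Nd2 and mt-Nd1 were the most abundant, at 8333 to 10635 and 7460 to 8644 FPKM over the 6 liver libraries, ranges that overlap. mt-Nd4 (4750 to 5954 FPKM), mt-Nd5 (2707 to 3553) and mt-Nd6 (2290 to 3219) followed in liver, with mt-Nd5 and mt-Nd6 overlapping. In brain and testis mt-Nd1 lay above mt-Nd2 with no overlap, at 3500 to 3945 against 2362 to 2853 FPKM in brain and 927 to 1148 against 471 to 595 in testis. mt-Nd6 is the protein gene of the opposite strand, and the described library kit does not mark strand, so its reads cannot be told apart from antisense reads of the long transcript through mt-Nd5.

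**Figure D1:**
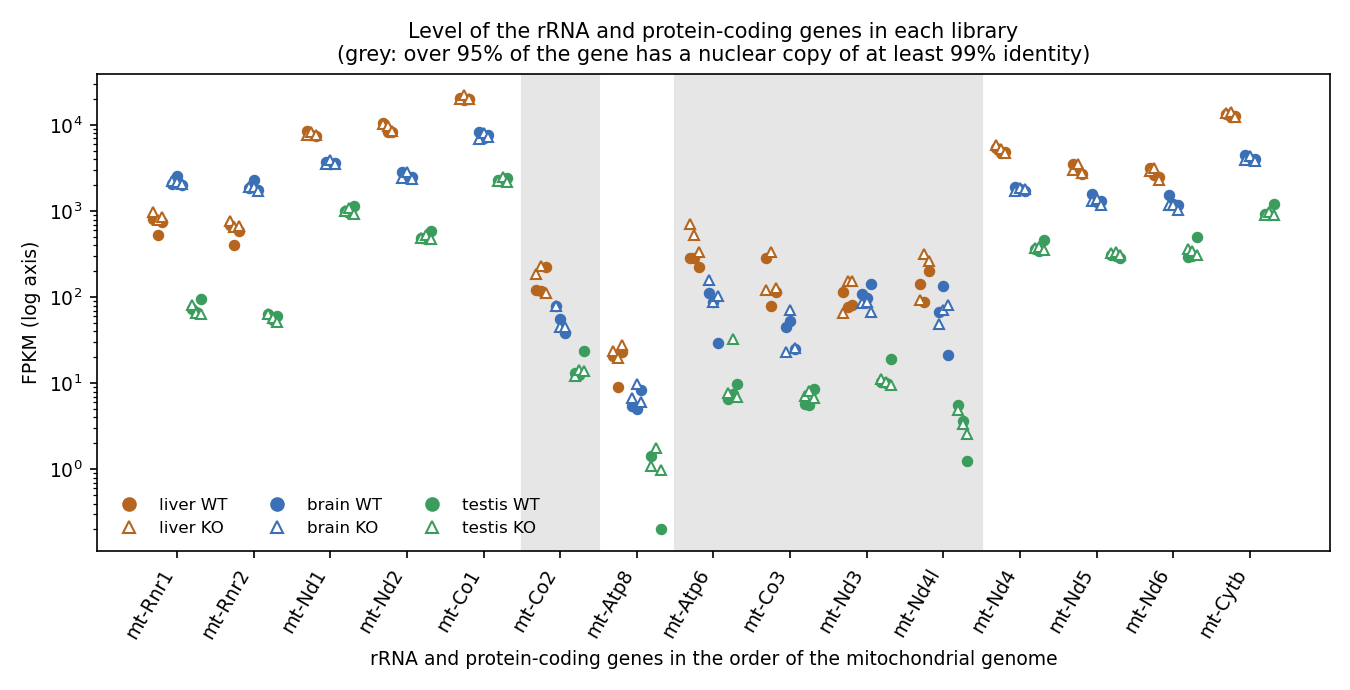
FPKM (log axis) of the 2 rRNA and 13 protein-coding genes in the order of the mitochondrial genome. Each point is a library, filled circles are WT and open triangles KO, and 1 testis WT value of mt-Atp8 at 0 is not drawn. The genes in grey, with near-identical nuclear copies, lie below the 7 highest protein-coding genes in every tissue, and mt-Atp8 has the lowest values.

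Across tissues most members were called. In WT liver against WT brain 21 of 28 tested members were higher (35.3% of all genes tested were higher) and 2 were lower (48.6% of all). The lower ones were the rRNAs. Scaled to the library total, 6 members were higher (21.2% of all genes) and 4 lower (65.2%), and the median log2 difference of all genes was -1.07 in place of -0.32. The 6 were mt-Co1, mt-Cytb, mt-Nd2, mt-Nd4, mt-Te and mt-Ty, and the 4 were mt-Rnr1, mt-Rnr2, mt-Nd3 and mt-Th. The same counts over the KO libraries were 21 higher and 2 lower of 27 on FPKM, against 35.5% and 48.7% of all genes, and 16 higher and 2 lower on library totals (21.2% and 65.6% of all).

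Testis stood lowest on both scales. In WT liver against WT testis all 27 tested members were higher, where 29.9% of all genes were, and all 27 were also higher when scaled to the library total (20.9% of all). Over the KO libraries all 26 tested members were higher, against 30.6% of all genes. In WT brain against WT testis 24 of 25 were higher (35.9% of all genes), and 24 of 25 on library totals (37.2%). Over the KO libraries 24 of 26 were higher, against 37.2% of all genes. In WT the member not called was mt-Tp, at a log2 difference of 1.99 ± 0.90 (adjusted p = 0.0729, limma).

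The rRNAs followed another order, with brain highest. The small ribosomal subunit RNA mt-Rnr1 (ENSMUSG00000064337, MT 70 to 1024) measured 2090.1, 2585 and 2028 FPKM in WT brain, 809, 535 and 753 in WT liver, and 73.3, 67.8 and 96.5 in WT testis. The large subunit RNA mt-Rnr2 (ENSMUSG00000064339, MT 1094 to 2675) measured 1853, 2314 and 1746 FPKM in WT brain, 692, 399 and 590 in WT liver, and 63.1, 55.0 and 61.2 in WT testis. For both genes all WT brain libraries lay above all WT liver libraries, and these above all WT testis libraries. In liver against brain the log2 difference was -1.69 ± 0.19 for mt-Rnr1 (adjusted p = 0.000134) and -1.84 ± 0.22 for mt-Rnr2 (adjusted p = 0.000213, limma), and on library totals it was -2.53 and -2.68.

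The KO libraries repeated this order. mt-Rnr1 spanned 2077 to 2265 FPKM in KO brain against 791 to 970 in KO liver and 64.3 to 81.2 in KO testis. In liver against brain over KO libraries the log2 difference was -1.33 ± 0.12 for mt-Rnr1 and -1.40 ± 0.11 for mt-Rnr2 (adjusted p = 3.9e-05 and 2.21e-05, limma).

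Relative to mRNA, the rRNAs were higher in brain than in the other two tissues. Their summed FPKM was 16.2 to 22.8% of that of the 7 protein-coding genes without a full-length near-identical copy (mt-Nd1, mt-Nd2, mt-Co1, mt-Nd4, mt-Nd5, mt-Nd6 and mt-Cytb) in the 6 brain libraries. The same ratio was 1.60 to 2.71% in liver and 2.03 to 2.55% in testis. Liver and testis overlapped, and no brain library came near them. The ratio does not depend on the library scaling, because both parts come from the same library. As a share of mitochondrial reads, rRNA made up 15.3% ± 1.68 in brain, 2.15% ± 0.369 in liver and 2.14% ± 0.175 in testis (SD, n = 6 each).

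The share of rRNA in such libraries can move with how poly-A selection went. A list of 12 matched nuclear RNAs without poly-A tails (such as the 7SK, RNase MRP and spliceosomal RNAs) summed to 0.845 to 1.57 CPM (reads scaled to the library total) in brain, 1.34 to 2.42 in liver and 1.41 to 2.97 in testis, with Rn7s6, Rnu11 and Scarna10 at 0 in every group. In WT liver and WT brain Rn7s1, Rmrp (RNase MRP) and Rnu12 were also at 0. Only 1 of the 12 passed the read filter between these groups, and it was higher in liver (log2 difference 3.46). A sum that rests on so few RNAs cannot show how poly-A selection went. The counts are low, and the part of poly-A selection in the rRNA levels was not tested. Between the 2 rRNAs the ratio mt-Rnr1 over mt-Rnr2 was 1.12 to 1.22 in brain, 1.17 to 1.34 in liver and 1.14 to 1.58 in testis, ranges that overlap.

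**Figure D2:**
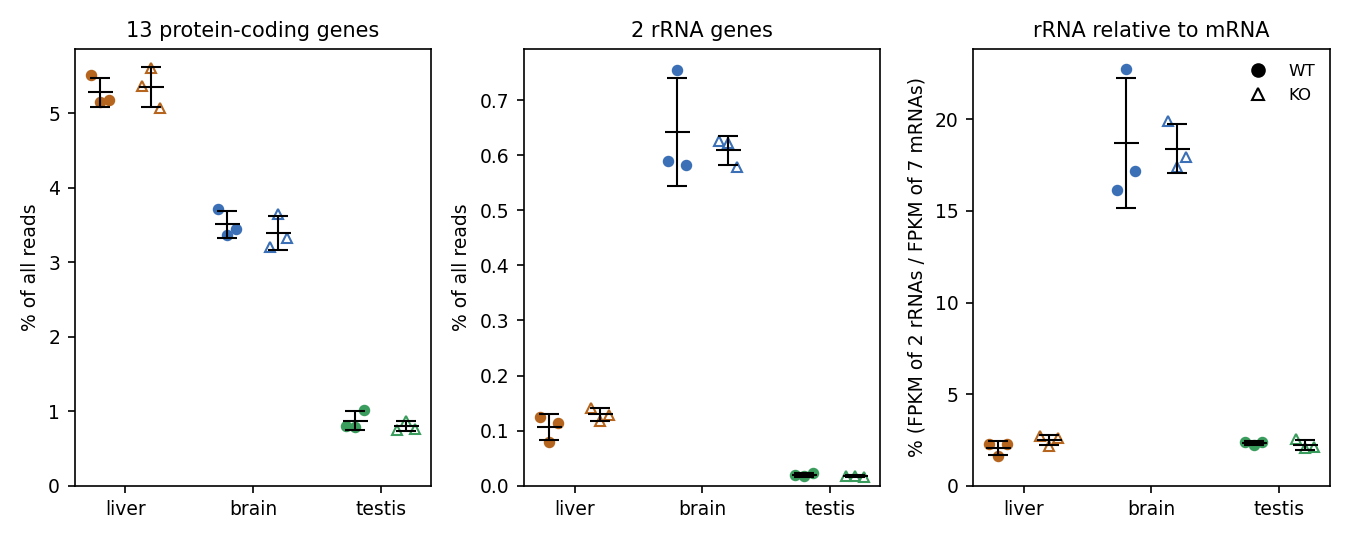
Share of all reads from the 13 protein-coding genes (left) and the 2 rRNA genes (middle), and rRNA FPKM as a percentage of the FPKM of 7 mRNAs (right). Points are libraries, horizontal bars the mean and SD of 3; the right panel shows brain at 16.2 to 22.8% and both other tissues under 3%.

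The mRNAs were not in the same proportions in the 3 tissues. Among the 7 mRNAs just named, mt-Nd2 made up 14.2 to 16.2% of the summed FPKM in liver, against 11.2 to 12.01% in brain and 8.51 to 8.93% in testis. mt-Nd1 ran the other way, at 12.01 to 13.2% in liver, against 15.4 to 16.9% in brain and 16.98 to 17.8% in testis. Neither gene's ranges overlapped between tissues. The ratio of mt-Nd2 to mt-Nd1, which encode subunits of the same complex and are separated only by tRNA genes, was 1.08 to 1.34 in liver, against 0.664 to 0.749 in brain and 0.483 to 0.518 in testis.

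mt-Cytb made up 20.6 to 21.8% in liver, against 18.2 to 18.7% in brain and 15.7 to 18.02% in testis, again without overlap. mt-Co1 was 36.9 to 40.8% in testis and 31.4 to 34.6% over the libraries of the other tissues. mt-Nd4 was lower in testis (6.24 to 6.98%) than in liver (8.00 to 9.30%) and brain (7.78 to 8.64%), which overlap. These shares were compared as ranges over 6 libraries that pool both genotypes. Testis WT 3 lay outside the other 5 testis libraries in 6 of the 7 shares, all but mt-Nd1. Its share was 36.9% for mt-Co1 against 39.5 to 40.8% in the others, 18.02% for mt-Cytb against 15.7 to 16.4%, 7.58% for mt-Nd6 against 5.21 to 6.31%, 4.32% for mt-Nd5 against 5.37 to 5.80%, 6.98% for mt-Nd4 against 6.24 to 6.57%, and 8.93% for mt-Nd2 against 8.51 to 8.72%. The testis limits nearest to the other tissues for mt-Co1, mt-Cytb, mt-Nd4 and mt-Nd2 thus come from this library, and without it the gaps between tissues are wider. Its mt-Nd6 measured 505 FPKM against 296 to 359 in the other testis libraries.

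**Figure D3:**
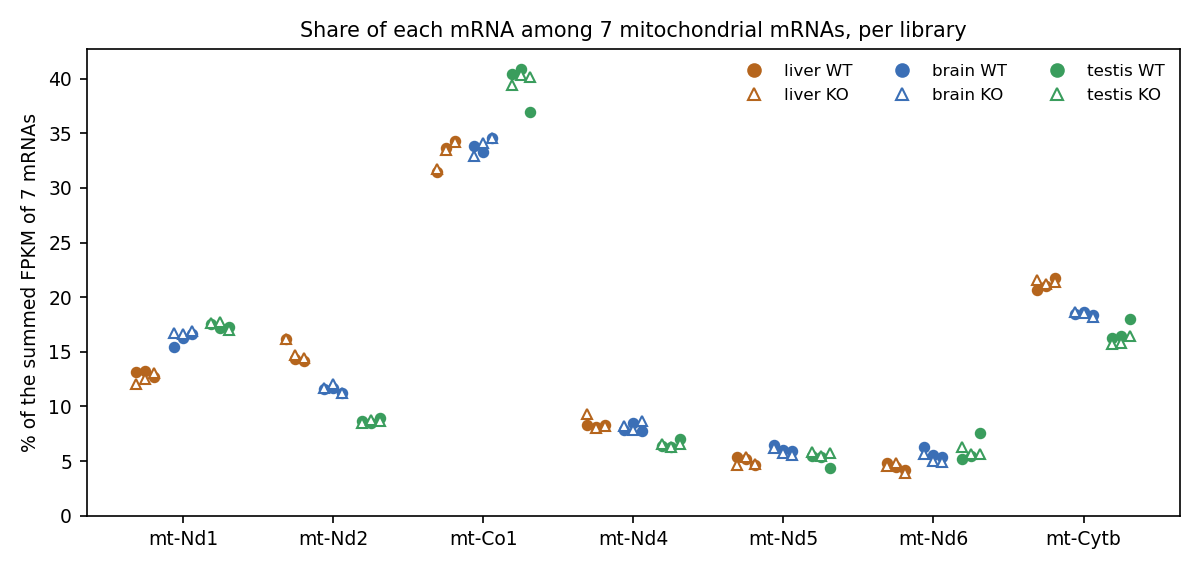
Share of each of 7 mitochondrial mRNAs in their summed FPKM. Points are libraries (filled circles WT, open triangles KO); mt-Nd2 and mt-Cytb are highest in liver and lowest in testis, and mt-Nd1 is lowest in liver.

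The 5 genes with full-length near-identical copies had far lower values than their neighbours. In liver mt-Atp6, an ATP synthase subunit, spanned 225 to 711 FPKM over 6 libraries. The complex IV subunits spanned 112 to 229 (mt-Co2) and 79.8 to 336 (mt-Co3). The complex I subunits spanned 87.2 to 318 (mt-Nd4l) and 65.7 to 156 (mt-Nd3). The lowest of the 7 other genes in liver, mt-Nd6, was at 2290 or above. All 5 lay below all 7 in brain (at most 159 against at least 1034 FPKM) and testis (at most 32.3 against at least 288) as well. The 5 summed to 1.09 to 2.30% of the FPKM of the 13 genes in liver, against at most 1.95% in brain and 0.703 to 1.10% in testis.

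Their nuclear copies held reads of the same order. In liver Gm10925, the copy of mt-Atp6, spanned 82.0 to 240 FPKM, and reads of mt-Atp6 were 1.67 to 4.601 times those of Gm10925. For mt-Co3 the same ratio was 0.919 to 7.33. All 7 copies together held 2767 to 6578 reads per liver library, against 5969 to 14430 in the 5 genes. The 7 include Gm29216 and Gm28439, which match mt-Co1 and mt-Nd4 instead of the 5 genes. In library 4 of KO liver, Gm29216 held 2082 of the 6578 reads. How reads that align equally well to 2 places were treated is not given in the sources used here. Values of these 5 genes are therefore uncertain as levels, and the part of read assignment in the low values was not tested.

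mt-Atp8 (MT 7766 to 7969), the remaining ATP synthase subunit, shares 43 bases with mt-Atp6, and Gm10925 matched these at 100% identity. Its other bases lie within the copied stretch. Only annotated transcripts were searched, so whether those bases have a copy was not tested. mt-Atp8 was the protein-coding gene with the lowest median in each tissue. It measured 8.97 to 28.0 FPKM in liver, against 5.06 to 9.73 in brain and 0 to 1.75 in testis. Apart from mt-Atp8, the 2 genes that copies cover in part were among the 7 high ones. mt-Co1 matched Gm29216 over 483 of 1545 bases and mt-Nd4 matched Gm28439 over 876 of 1378. The 5 genes with no copy of 99% identity, mt-Nd1, mt-Nd2, mt-Nd5, mt-Nd6 and mt-Cytb, were among the 7 high ones in all tissues. The tRNA genes inside the copied stretch, mt-Ts1, mt-Td, mt-Tk, mt-Tg and mt-Tr, had 1, 3, 0, 192 and 38 reads over 18 libraries.

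The 22 tRNA genes held 45078 reads over 18 libraries, and 5 of them held 89.7%. These were mt-Tp (14361 reads), mt-Tc (8918), mt-Tn (8546), mt-Te (6380) and mt-Ty (2216), which carry proline, cysteine, asparagine, glutamate and tyrosine. All 5 are encoded on the minus strand, while 14 of the 22 lie on the plus strand, and the highest of the other 17 genes had 952 reads. Their sequences are given 5′ to 3′ as encoded.

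mt-Tp: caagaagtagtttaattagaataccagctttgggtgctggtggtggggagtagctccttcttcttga

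mt-Tc: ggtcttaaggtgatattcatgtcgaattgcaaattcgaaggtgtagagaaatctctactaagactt

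mt-Tn: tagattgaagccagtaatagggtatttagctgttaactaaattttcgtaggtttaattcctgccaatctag

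mt-Te: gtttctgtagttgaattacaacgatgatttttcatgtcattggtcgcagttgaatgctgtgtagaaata

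mt-Ty: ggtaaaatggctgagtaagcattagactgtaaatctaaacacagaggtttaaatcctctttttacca

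These tRNA genes are 66 to 71 bases long, so a sequenced fragment that covers one can reach into its neighbours, and without strand information its reads cannot be told apart from those of the opposite strand. mt-Tn, mt-Tc and mt-Ty lie in a row between MT 5089 and 5326. mt-Te lies between mt-Nd6 and mt-Cytb at MT 14071 to 14139, and mt-Tp is the last gene, at MT 15356 to 15422. The other minus-strand tRNA genes, mt-Tq, mt-Ta and mt-Ts1, had 97, 87 and 1 reads. Of the plus-strand tRNA genes mt-Th (952), mt-Tl1 (889), mt-Tl2 (845), mt-Tw (798), mt-Tm (468), mt-Tg (192) and mt-Ti (152) had the next most reads. mt-Ts2, mt-Tv and mt-Tt had 97, 23 and 15. mt-Tf and mt-Tk had 0 reads in all 18 libraries, which allows up to 0.128 to 0.158 CPM per library, taking 3 counts as the limit for a count of 0 and covering counting error only.

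Across tissues mt-Te, mt-Tc, mt-Tn and mt-Ty followed the order of the mRNAs, with WT liver above WT brain and WT brain above WT testis in FPKM. On library totals the WT liver and WT brain ranges of mt-Tc and mt-Tn overlapped, and neither was called (adjusted p = 0.088 and 0.259, limma), while mt-Te and mt-Ty stayed higher in liver. mt-Te measured 932, 568 and 759.7 FPKM in WT liver, 179, 170.3 and 119 in WT brain, and 9.04, 20.8 and 13.1 in WT testis, with no overlap between tissues. Of the 5, mt-Tp varied most among libraries of one group. It measured 1373, 1019 and 947 FPKM in WT liver, 473, 3908 and 3245 in KO liver, 969, 190.3 and 65.0 in WT brain, and 414, 86.7 and 55.4 in KO brain. Library 1 of WT brain and library 4 of KO brain were high, and library 4 of KO liver was low. No difference of mt-Tp between genotypes can be read against that spread.

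**Figure D4:**
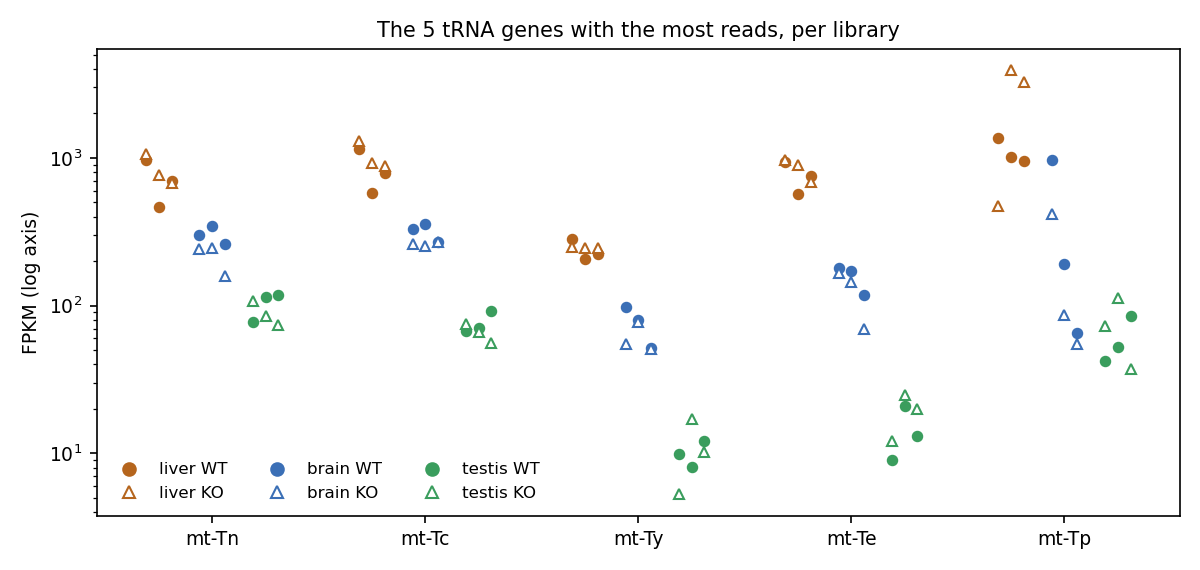
FPKM (log axis) of the 5 tRNA genes with the most reads. Points are libraries (filled circles WT, open triangles KO); mt-Tn, mt-Tc, mt-Ty and mt-Te separate the tissues on this scale (mt-Tn and mt-Tc overlap between WT liver and WT brain on library totals), while mt-Tp in brain spans 55.4 to 969 FPKM.

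The comparison of genotypes asks whether loss of Pcgf6 goes with a change of mitochondrial transcripts, and no member was called in any tissue. Of 28 members tested in liver, 0 were called (0.0212% of all genes were called higher and 0% lower). Of 27 in brain, 0 were called (0.067% and 0.0167%), and of 22 in testis, 0 (0% and 0.00448%). So few genes were called at all that these counts say little about the members. At an unadjusted p under 0.05 there were 2 of 28, 3 of 27 and 2 of 22 members in liver, brain and testis, where 4.38%, 4.46% and 4.13% of all genes were. These counts moved between 0 and 6, 0 and 8, and 0 and 2 over the alternatives run, with 6, 8 and 1 in the fit with a replicate block (7.61%, 5.52% and 3.86% of all genes). limma voom on the recovered reads also called 0 members in each tissue.

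Shares of all reads overlapped between genotypes. Mitochondrial reads made up 5.41% ± 0.218 in WT and 5.51% ± 0.265 in KO liver, 4.17% ± 0.142 and 4.02% ± 0.236 in brain, and 0.891% ± 0.131 and 0.816% ± 0.0676 in testis (SD, n = 3 each). For mt-Co1 the log2 change in KO was 0.05 in liver, -0.05 in brain and -0.02 in testis. The 95% intervals were -0.41 to 0.50, -0.93 to 0.83 and -0.35 to 0.30 (limma). The brain libraries of mt-Co1 lay closer together than that, at 7166 to 8264 FPKM in WT and 6911 to 8110 in KO. The limma spread is shared with other genes of similar level, so the brain interval is not the spread of these libraries alone. Over the 7 mRNAs without a full-length copy, the largest change in size was -0.19 ± 0.17, for mt-Nd6 in brain. The median change of the 13 protein-coding genes was 0.09 in liver, -0.03 in brain and -0.05 in testis, and leaving out 1 library moved it to between 0.03 and 0.17 (liver), -0.11 and 0.03 (brain), and -0.11 and 0.05 (testis).

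The rRNAs did not pass the test either. In liver mt-Rnr1 was 970, 791 and 859 FPKM in KO against 809, 535 and 753 in WT, a log2 change of 0.34 ± 0.17 with a 95% interval from -0.07 to 0.74. In brain the interval for mt-Rnr1 ran from -0.50 to 0.45 and in testis from -0.52 to 0.21. WT and KO ranges overlapped in each tissue. The deposited data number the libraries 1 to 3 within each genotype, and in liver mt-Rnr1 and mt-Rnr2 were higher in KO in 3 of 3 pairs of equal number. With these numbers as a replicate block the SE of the mt-Rnr1 change was 0.10 and its adjusted p 0.552, and for mt-Rnr2 they were 0.13 and 0.647 (limma).

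The gene with the smallest p in liver was mt-Atp6, one of those with a near-identical copy. It measured 285, 286 and 225 FPKM in WT and 711, 533 and 338 in KO. The KO libraries did not overlap with the WT ones, and KO 6 was close to the highest WT library. The log2 change was 0.93 ± 0.26 (95% interval 0.32 to 1.54, adjusted p = 0.808, limma), and the adjusted p ranged from 0.2825 to 0.999 over 14 alternatives. Reads of mt-Atp6 and Gm10925 together were 166, 192 and 169.7 CPM in WT and 428, 291 and 196 in KO. The 5 copied genes summed to 946, 647 and 847 FPKM in WT and 1179, 1569 and 1001 in KO liver without overlap, but their reads did overlap (7005 in KO 6 against 7711 in WT 1).

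mt-Tm, the methionine tRNA, was the other liver member whose groups did not overlap, at 45.9, 32.2 and 47.7 FPKM in WT and 54.2, 52.3 and 56.0 in KO, from 34 to 56 reads per library. That made 2 of 28 members in liver, where 9.52% of all genes did not overlap. In brain 3 of 27 members did not overlap, against 9.08% of all genes, and each was lower in KO. In testis it was 0 of 22, against 11.9%. These shares are close to or below the background in liver and testis, and in brain 3 members make 11.1%.

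In brain mt-Nd3, also a gene with a near-identical copy, measured 108, 97.5 and 143 FPKM in WT and 85.5, 88.6 and 66.8 in KO. Its log2 change was -0.52 ± 0.16 (95% interval -0.90 to -0.15, adjusted p = 0.92, limma), with an adjusted p from 0.69 to 1 over 14 alternatives. mt-Tn measured 302, 348 and 263 FPKM in WT and 244, 246 and 158 in KO, and mt-Tc 329, 357 and 269.6 against 261, 252 and 268. The changes were -0.51 ± 0.19 and -0.28 ± 0.11 (adjusted p = 0.9998 for both, limma). In liver the same tRNAs had changes of 0.26 ± 0.28 and 0.34 ± 0.27.

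In testis mt-Tl1, a leucine tRNA, had a log2 change of 0.44 ± 0.18 and mt-Th, the histidine tRNA, one of -0.80 ± 0.33 (adjusted p = 0.871 for both, limma). They rest on 14 to 28 and 12 to 41 reads per library, and their groups overlapped. The difference of the KO effect between tissues was tested over 12 libraries at a time. No member was called for brain minus liver (26 tested), testis minus liver (22) or testis minus brain (22), and 0 of these had an unadjusted p under 0.05. Of all genes 0% were called in brain minus liver. In testis minus liver 0% were higher and 0.0457% lower, and in testis minus brain 0.00626% and 0.0564%.

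**Figure D5:**
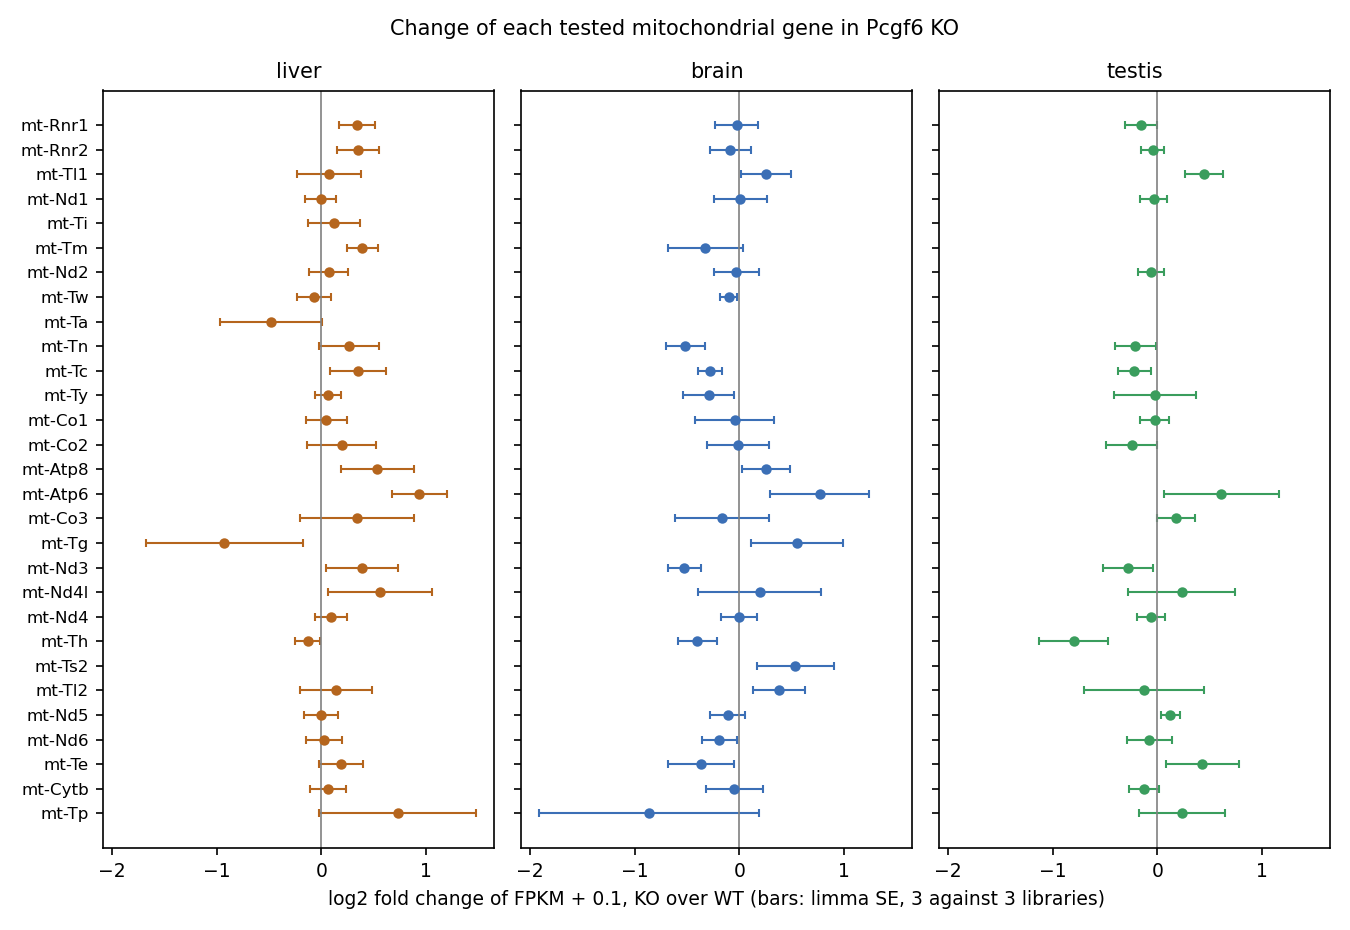
Log2 fold change of KO over WT for each tested member, with the limma SE from 3 against 3 libraries. mt-Atp6 in liver (0.93 ± 0.26) and mt-Nd3 in brain (-0.52 ± 0.16) had the smallest p in their tissues, and none passed the adjusted threshold.

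Nuclear genes that work with the mitochondrial ones were taken as 8 lists. None held a called gene in KO against WT in any tissue: nuclear subunits of complex I (36 genes), III (9), IV (17, of which 13 were tested in liver and 15 in brain) and V (15), mitochondrial transcription and genome upkeep (19), mitochondrial RNA processing and decay (22 measured), mitochondrial ribosomal proteins (76 tested of 77) and mitochondrial tRNA synthetases (19). In testis 35 of 36 complex I genes had a KO mean below the WT mean. Their median log2 change was -0.10, beside 0.03 over all genes. The lean was not particular to complex I. Higher in KO testis were 0 of 9 complex III genes, 3 of 15 of complex V and 16 of 76 ribosomal proteins. Their medians were -0.07, -0.10 and -0.09. The median was -0.05 for complex IV, -0.06 for tRNA synthetases, -0.03 for transcription and genome upkeep and 0.02 for RNA processing. For complex I the median was 0.03 in liver and -0.01 in brain.

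Between tissues the nuclear subunits leaned the same way as the mitochondrial mRNAs on FPKM. In WT liver against WT brain 33 of 36 complex I genes, all 9 of complex III and all 15 of complex V were higher, against 35.3% of all genes. Of complex IV 10 of 15 were higher and 2 lower (48.6% of all genes), the lower ones being Cox6a2 (log2 difference -5.25) and Cox4i2 (-2.55). Scaled to the library total this was 10 of 36, 9 of 9 and 10 of 15, against 21.2% of all genes, with 8 complex I genes lower (65.2% of all), and complex IV had 2 of 15 higher and 6 lower. Cyc1, the cytochrome c1 of complex III, measured 277 ± 9.99 FPKM in liver, 104 ± 1.09 in brain and 33.9 ± 5.36 in testis (SD, n = 3). In WT brain against WT testis 18 of 36 nuclear complex I genes were higher and 6 lower, against 35.9% and 50.1% of all genes. Their median log2 difference was 0.35, beside -0.42 over all genes. All 7 mitochondrial complex I genes were higher there, with a median of 2.23.

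Of the nuclear complex IV genes, 10 of 16 were higher and 4 lower in WT liver than in WT testis (29.9% and 57.8% of all genes). On library totals 7 were higher and 6 lower, where 20.9% of all genes were higher and 14540 of 21737 lower. In WT brain against WT testis 9 of 17 were higher and 6 lower (35.9% and 50.1%). On library totals this was 9 and 5 (37.2% and 48.4%). Ndufa4 and Cox7b were higher in liver than in testis by a log2 difference of 4.51 ± 0.21 and 4.79 ± 0.24 (adjusted p = 1.10e-06 and 1.47e-06, limma). Among those that were higher in testis were forms known from this tissue. Cox8c measured 555 ± 33.3 FPKM in WT testis and had 0 reads in WT liver and 1 read in WT brain. Cox7b2 measured 178 ± 5.75 FPKM in testis and had 0 reads in WT liver, and Cox6b2 measured 255 ± 12.7 against 2.78 ± 4.03 in liver and 2.87 ± 0.814 in brain. In the same libraries mt-Co1, which is part of the same enzyme, was lowest in testis.

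Of 19 genes for mitochondrial transcription and genome upkeep, 15 were higher and 2 lower in WT liver than in WT brain, where 35.3% and 48.6% of all genes were; on library totals it was 10 and 7, against 21.2% and 65.2%. In WT brain against WT testis 4 were higher and 10 lower, against 35.9% and 50.1% of all genes, and on library totals 5 and 9, against 37.2% and 48.4%. Tfam, which packages mitochondrial DNA and starts its transcription, measured 13.4 ± 1.29 FPKM in WT liver, 6.14 ± 0.137 in WT brain and 30.8 ± 4.19 in WT testis (SD, n = 3). It was lower in liver than in testis by a log2 difference of -1.19 and lower in brain than in testis by -2.30 (adjusted p = 0.00011 and 8.5e-07, limma). Tfb1m, the rRNA methyltransferase, was likewise highest in testis at 25.6 ± 2.57 FPKM against 9.81 ± 1.18 in liver and 2.77 ± 0.323 in brain. Ppargc1a, a coactivator of genes for mitochondria, was highest in brain at 7.37 ± 0.314 FPKM, against 2.25 ± 0.382 in liver and 0.385 ± 0.161 in testis.

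In WT liver against WT brain 17 of 22 RNA processing and decay genes were higher and 2 lower, against 35.3% and 48.6% of all genes. Hsd17b10, a subunit of the enzyme that cuts tRNA 5′ ends in mitochondria, measured 146 ± 12.1 FPKM in liver and 14.7 ± 0.711 in brain, and Lrpprc, which stabilises mitochondrial mRNAs, 25.8 ± 3.03 and 6.76 ± 0.303. On library totals 9 of the 22 were higher and 8 lower, against 21.2% and 65.2%. Of the mitochondrial ribosomal proteins 66 of 76 were higher in liver than in brain and 3 lower, and 31 and 20 on library totals (the same shares of all genes apply), whereas both rRNAs of the same ribosome were lower in liver on both scales. In WT brain against WT testis 28 of the 76 ribosomal proteins were higher and 27 lower; the share higher is near the 35.9% of all genes, and 50.1% of all genes were lower.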

How the data were processed

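The submitters' processing notes name mm10, HISAT2 2.0.5, featureCounts 1.5.0-p3 and DESeq2 1.16.1. How multimapping, overlapping or stranded reads were counted is not given in the sources used here. The authors deposited FPKM per gene and library. Whole reads were recovered from it: FPKM times length fell on whole steps for 100% of values (tolerance 0.01 reads), which gave depth and CPM.

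limma 3.58.1 (R 4.3.3) was run with a mean-variance trend on log2(FPKM + 0.1) over the whole table, for genes with 10 reads in 3 or more of the libraries compared. It was tested on simulated reads, where the share of false calls was above the threshold. For the difference of the KO effect, where no member was called, this share was well above it. The design had allowed for a count test, which was not used because the files hold FPKM. The members and gene lists were chosen with earlier results of these data known. All members are accounted for; of each nuclear list up to 3 called genes per direction with the smallest adjusted p could be named, and members given library by library beyond the rRNAs, protein genes and 5 most read tRNAs were chosen after their values were seen. Alternatives were other pseudocounts, no filter, scaling to the library total with and without mitochondrial reads, limma voom on recovered reads, leaving out each library, 1 fit over 18 libraries and a replicate block. Sequences come from GENCODE M21 transcripts, whose coordinates equal those of the files for all 37 members; copies were found with BLAST 2.17.0 (E-value limit 1e-10). Python 3.11.15, numpy 2.4.6, pandas 2.3.3 and matplotlib 3.10.9 served for the rest.

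Numbers in the deposited file names run 1 to 3 in both genotypes. Deviations of same-numbered WT and KO liver libraries correlated at 0.354, 0.162 and 0.299, and each matched best with its own number. In brain and testis 1 pair each was below 0. Whether equal numbers stand for a shared litter or batch is not stated.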

Additional observations from a re-analysis of the deposited data

How the results depend on the processing

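In KO against WT, 0 members were called in each tissue under all 15 alternatives. These included the replicate block on file-name numbers (0 in liver, brain and testis). Another, added after seeing the data, took the 22, 21 and 17 members left without mt-Atp8 and the genes with full-length near-identical copies. Leaving out 1 library gave 0 in each tissue. The median change of the 13 protein-coding genes was 0.03 to 0.17 (liver), -0.11 to 0.03 (brain) and -0.11 to 0.05 (testis) when 1 library was left out; on library totals it was 0.06, -0.03 and -0.13.

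Members called in WT liver against WT brain fell from 23 to 10 on library totals. They fell to 11 on totals without mitochondrial reads and to 13 with limma voom. All 3 scale by read totals, which places liver lower against brain than FPKM does. The median log2 difference of the members was 1.22 on FPKM and 0.385, 0.404 and 0.377 on these scalings. Of all genes 35.3% were higher and 48.6% lower on FPKM, and 21.2% and 65.2% on library totals. On FPKM, leaving out 1 library gave 18 to 24 called members. On these 3 scalings mt-Th changed sign (-0.52, -0.50 and -0.52), as did mt-Tl1 (-0.0455, -0.0267 and -0.0536) and mt-Tl2 (-0.43, -0.41 and -0.43). Liver against testis gave 27 to 30 members and brain against testis 24 to 30; leaving out 1 library gave 27 to 28 and 24 to 26. With title numbers as a replicate block the paired counts were 25, 27 and 24. Same-numbered libraries of different tissues correlated at -0.018 to 0.137, and 17 of 18 matched best with their own number. Whether they share an animal or a batch is not stated and was not tested.

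The mean mitochondrial share of reads in brain was 4.09%, and 3.47% without the 2 rRNA genes, an alternative added after seeing the data; with reads of the chromosome 1 copies it was 4.10%. Depth limits the tRNA genes, of which 10 had under 100 reads over 18 libraries.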
